A study of Mus musculus with 6 samples.

Results

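The genes described here are 9 antiviral genes of the type I interferon response, *Ifit1*, *Ifit2*, *Ifit3*, *Isg15*, *Usp18*, *Rsad2*, *Irf7*, *Irf9* and *Stat2*. They were chosen by name as interferon-stimulated genes and as the STAT and IRF factors that drive them, with earlier results of these data known. All 9 were found among the 54115 genes of the table. A filter on low counts left 8 of the 9 for testing, all but *Ifit2*. They were measured by RNA-seq in the liver of male mice of 2 genotypes, 3 WT mice and 3 *Sirt7* KO mice, each 24 months old and fasted for 16 h. The mice were littermates from crosses of heterozygous parents on a C57BL/6J background, and the *Sirt7* KO line is a single line obtained from another laboratory. SIRT7 is a nuclear deacylase of the sirtuin family, which removes acyl groups from histones and other proteins. Each library was made from whole liver, so a difference in the number of cells of a type and a difference in RNA per cell cannot be told apart.

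Type I interferons are secreted by cells that sense viral or misplaced nucleic acids. They bind the receptor IFNAR on neighboring cells, whose kinases JAK1 and TYK2 phosphorylate STAT proteins, and STAT2 and IRF9 enter the complex ISGF3. ISGF3 binds the interferon-stimulated response element in front of antiviral genes, and hepatocytes and Kupffer cells both carry this response.

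The DNA in front of the start sites is shown first, since ISGF3 acts there. The response element was searched as the letters GAAA, any 2 bases and GAAA again, on both strands of a window of 250 bases before and 50 bases after each start site in RefSeq (GRCm38.p6). Windows were found for 8 of the 9 genes, all but *Usp18*, and 5 of these 8 genes held a match. Among all genes with a window, 3.99% held a match, as did 22 of 44 other antiviral genes and 8 of 9 interferon gamma GTPases. The stretches below run 5′ to 3′ on the strand of the gene, with each match in capitals and up to 30 bases on either side. A match on the opposite strand reads TTTC, any 2 bases and TTTC.
*Isg15*, chr4:156200845-156200926, minus strand: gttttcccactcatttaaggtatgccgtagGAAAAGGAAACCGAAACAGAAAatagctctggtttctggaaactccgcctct
*Ifit1*, chr19:34640755-34640843, plus strand: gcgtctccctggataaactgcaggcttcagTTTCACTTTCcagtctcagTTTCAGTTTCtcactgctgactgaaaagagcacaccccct
*Ifit3*, chr19:34583343-34583446, plus strand: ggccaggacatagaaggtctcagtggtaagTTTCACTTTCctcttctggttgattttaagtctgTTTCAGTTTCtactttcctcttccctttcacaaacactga
*Rsad2*, chr12:26456533-26456602, minus strand: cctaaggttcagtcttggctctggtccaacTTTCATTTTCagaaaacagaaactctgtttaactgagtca
*Stat2*, chr10:128270248-128270315, plus strand: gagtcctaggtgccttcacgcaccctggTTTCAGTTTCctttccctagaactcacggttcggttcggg

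*Ifit1* and *Ifit3* each held 2 matches with the same letters in the same order, TTTCACTTTC and then TTTCAGTTTC. In *Isg15*, 3 matches overlapped each other within a single run. The windows of *Ifit2*, *Irf7* and *Irf9* held none of these letters. A match is a description of the sequence and was not tested for binding in these livers.

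**Figure D1:**
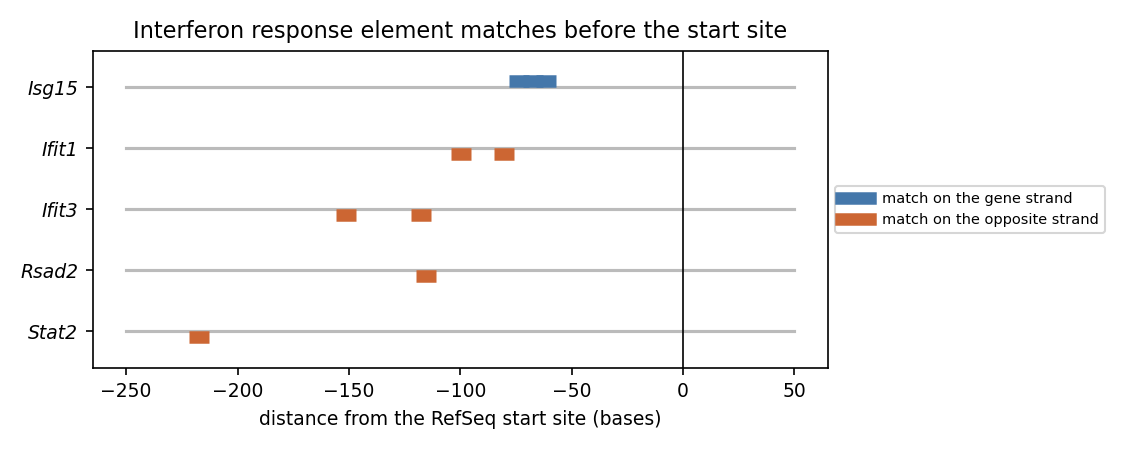
Map of the windows of 5 genes, with the distance from the RefSeq start site in bases on the x axis, 1 line per gene, and each match drawn as a block on the gene strand or on the opposite strand. All matches lie before the start site, from 222 bases before it in *Stat2* to within 66 bases of it in *Isg15*.

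Salmon assigned between 9994860 and 13424776 reads per liver to transcripts. The targeted gene, *Sirt7*, averaged 49.3 ± 5.19 CPM (SD, n = 3, read counts scaled to the library size) in the WT group and 37.0 ± 7.34 CPM (SD, n = 3) in the KO group, and its full-length transcript was assigned 429, 381 and 408 reads in WT mice, against 124, 135 and 77.5 in *Sirt7* KO mice. Some other *Sirt7* transcripts had more reads in *Sirt7* KO mice, such as *Sirt7-202*, with 2.12, 5.12 and 0 reads in WT mice, against 50.5, 54.1 and 93.3 in *Sirt7* KO mice, and *Sirt7-207*, with 43.0, 0 and 65.3 reads in WT mice, against 83.5, 119 and 192 in *Sirt7* KO mice. The full-length transcript had fewer reads in every *Sirt7* KO liver than in any WT liver. Salmon estimates these counts from reads that can fit more than 1 transcript. They thus do not show whether full-length *Sirt7* RNA was made in *Sirt7* KO mice. The study also measured *Sirt7* in liver by qRT-PCR, a separate measurement, and the legend of that figure marks values as not detected. The hepatocyte markers were high in every liver, with a sum over 8 markers of 51595 to 63218 CPM. In each group, mouse 1 differed most from the others, with a chi-square per gene of 65.1 and 76.4 between WT mouse 1 and the other WT mice (26.3 between those), and of 60.1 and 48.1 between *Sirt7* KO mouse 1 and the other *Sirt7* KO mice (16.9 between those). Over all tested genes, 2499 were highest in WT mouse 1 and 2334 in *Sirt7* KO mouse 1. Over all genes, edgeR called 1 gene different between the genotypes with all 6 livers and 251 genes (2.0%) without *Sirt7* KO mouse 1, so the interferon genes are also given without that liver. Without WT mouse 1 it called 2 genes.

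In the liver of *Sirt7* KO mouse 1, every one of the 8 interferon genes that could be tested was at its highest level among the 6 livers. Among all tested genes, 18.6% were highest in that liver. The mean over the 8 genes, on the log2 scale and relative to the mean of all 6 livers, took the values -0.58, -0.62 and -0.27 for WT mice 1 to 3, against 1.40, 0.16 and -0.089 for *Sirt7* KO mice 1 to 3. The livers of *Sirt7* KO mice 2 and 3 thus lay close above the highest WT liver, and *Sirt7* KO mouse 1 lay far above both. The log2 fold change between *Sirt7* KO and WT mice lay above 0 in all 8 genes, where 49.3% of all tested genes lay above 0, and ran from 0.28 in *Stat2* to 1.99 in *Ifit3* (median 1.25), where the median over all tested genes was -0.0061.

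None of the 8 genes passed the test. Genes were called in edgeR's quasi-likelihood test at a fold change over 1.5 with an adjusted p-value under 0.05 over 12524 tested genes, which 0.00798% of them met. The smallest adjusted p-value among the 8 was 0.20, in *Ifit1*. At an unadjusted p-value under 0.05, 5 of the 8 genes were higher in *Sirt7* KO mice, against 6.54% of all tested genes, and 0 were lower, against 4.78%. Without *Sirt7* KO mouse 1, 1 of the 8 (*Ifit1*) was higher at this level, against 9.03% of all tested genes, and the median log2 fold change was 0.35. That liver was the highest in all 8 genes, so a lower median without it was fixed in advance. In 3 of the 8 genes every *Sirt7* KO liver was above every WT liver, which held for 8.74% of all tested genes, and in 0 every *Sirt7* KO liver was below, against 8.09%. By liver, *Sirt7* KO mouse 1 was above all WT mice in 8 of 8 genes, mouse 2 in 7 and mouse 3 in 3, where the shares over all tested genes were 28.2%, 29.7% and 29.0%.

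**Figure D2:**
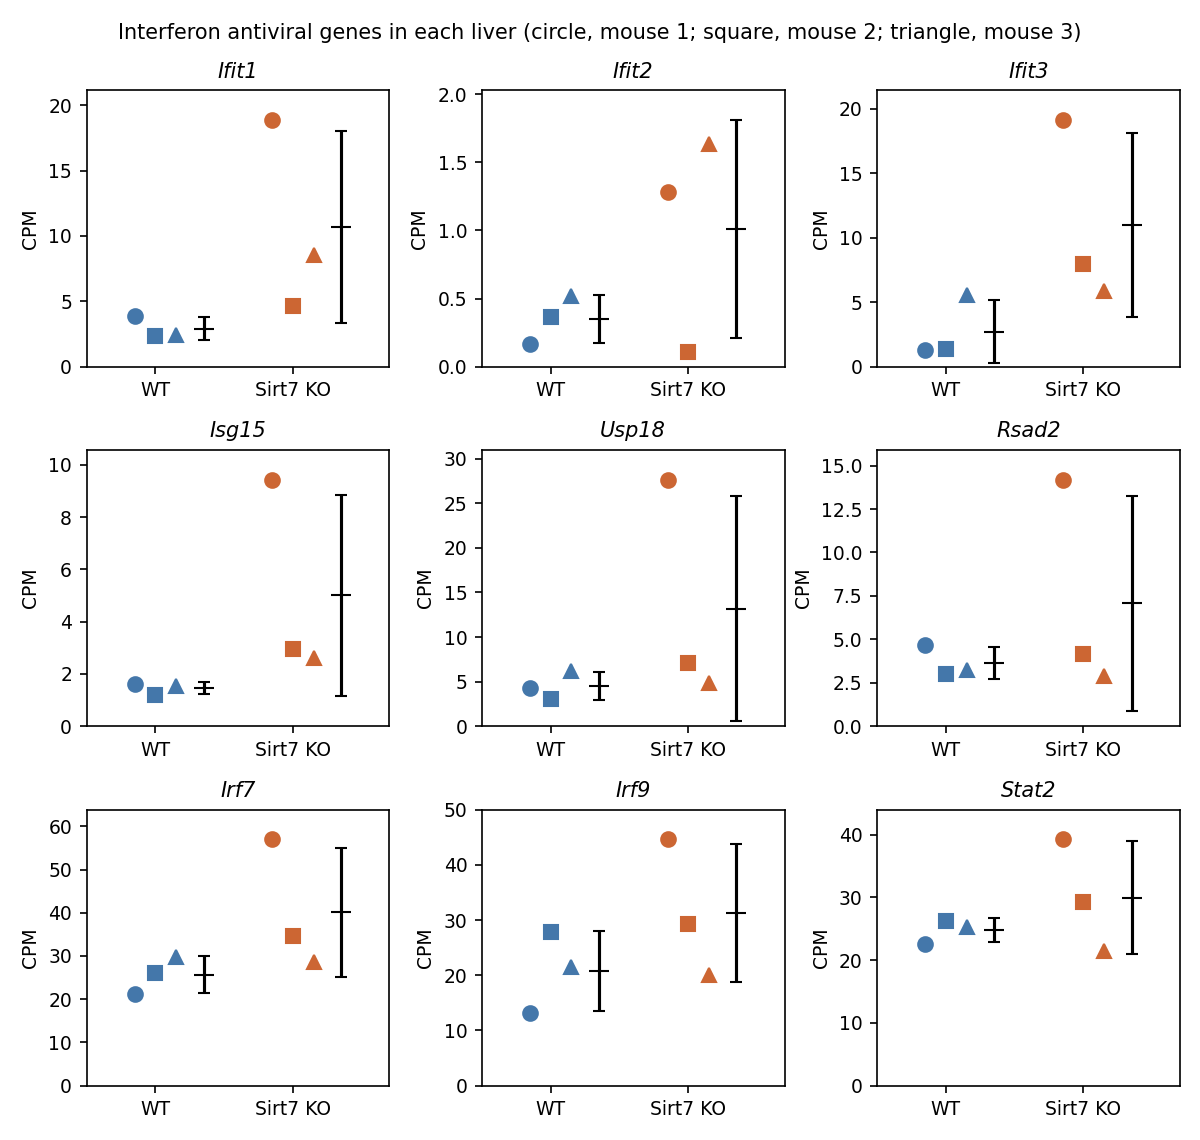
Expression of the 9 genes in each liver, in CPM on a linear axis that starts at 0, with WT mice in blue, *Sirt7* KO mice in orange, a symbol for each mouse number, and the mean with its SD (n = 3) in black. *Sirt7* KO mouse 1 (orange circle) is the highest liver in every panel but that of *Ifit2*, where *Sirt7* KO mouse 3 is at 1.64 CPM and mouse 1 at 1.28.

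The IFIT proteins bind foreign RNA, such as RNA whose cap lacks the methylation of host messages, and block its translation. Their genes lie in 1 cluster on chromosome 19 of GRCm38, with *Ifit2* (ENSMUSG00000045932.12) from 34550694 to 34576419, *Ifit3* (ENSMUSG00000074896.3) from 34583531 to 34588731 and *Ifit1* (ENSMUSG00000034459.8) from 34640871 to 34650009. *Ifit1* was at 3.90, 2.36 and 2.44 CPM in WT mice and at 18.9, 4.66 and 8.57 CPM in *Sirt7* KO mice. Every *Sirt7* KO liver was above every WT liver, and mouse 1 was 2.20 times the next highest liver. The log2 fold change of *Ifit1* was 1.89 (standard error 0.49, adjusted p = 0.20 from edgeR), and the exact two-sided permutation test gave p = 0.1, the smallest that 3 mice against 3 allow. Without *Sirt7* KO mouse 1 it was 1.19 (standard error 0.40, adjusted p = 0.17 from edgeR).
*Ifit3* was at 1.27, 1.36 and 5.55 CPM in WT mice and at 19.1, 7.95 and 5.88 CPM in *Sirt7* KO mice. The groups did not overlap, but WT mouse 3 came close to *Sirt7* KO mouse 3. Between the genotypes *Ifit3* differed by a log2 fold change of 1.99 (standard error 0.63, adjusted p = 0.28 from edgeR), and it was 1.32 (standard error 0.61, adjusted p = 0.32 from edgeR) without *Sirt7* KO mouse 1. Leaving out WT mouse 3 instead gave 3.06 (standard error 0.59, adjusted p = 0.21 from edgeR). *Ifit3* shares 61.8% of its words of 31 bases with its neighbor *Ifit3b*, so Salmon had to divide reads between the genes. Summed as 1 gene, they were at 2.12, 2.99 and 5.84 CPM in WT mice and at 21.7, 9.11 and 7.03 CPM in *Sirt7* KO mice. The groups stayed apart by a wider gap, with a log2 fold change of 1.78 (standard error 0.50, adjusted p = 0.22 from edgeR).
*Ifit2* had 2, 4 and 7 reads in WT mice, against 14, 1 and 17 in *Sirt7* KO mice, and it did not pass the filter on low counts. *Sirt7* KO mouse 2 had the fewest reads of all 6 livers, so the groups overlapped. *Ifit1bl1* and *Ifit1bl2*, which with *Ifit3b* lie between *Ifit3* and *Ifit1*, had at most 5 reads in any liver. With DESeq2, a second count test and the one the study's methods name, *Ifit1* and *Ifit3* were called higher (adjusted p = 0.0054 and 0.018 from DESeq2), 2 of the 8 genes against 1.53% of all genes with an adjusted p-value (2.11% in either direction). With transcript lengths as an offset the adjusted p-values from DESeq2 were 0.017 and 0.048, against a background of 1.30% (1.81% in either direction).

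ISG15 is a ubiquitin-like protein that is attached to newly made viral and host proteins, and USP18 removes it and also blocks signaling at IFNAR. *Isg15* (ENSMUSG00000035692.6) lies on chromosome 4 from 156199424 to 156200818 and *Usp18* (ENSMUSG00000030107.10) on chromosome 6 from 121245906 to 121270917. *Isg15* was at 1.61, 1.18 and 1.55 CPM in WT mice and at 9.43, 2.97 and 2.601 CPM in *Sirt7* KO mice. The WT livers lay close together and every *Sirt7* KO liver was above them (exact two-sided permutation test, p = 0.1, the smallest possible). *Isg15* had a log2 fold change of 1.78 (standard error 0.54, adjusted p = 0.26 from edgeR). Without *Sirt7* KO mouse 1 it was 0.93 (standard error 0.44, adjusted p = 0.32 from edgeR). *Isg15* shares 13.1% of its words of 31 bases with other genes, and its values rest on few reads, 13 to 21 in WT mice, against 27 to 103 in *Sirt7* KO mice.
*Usp18* was at 4.23, 3.09 and 6.21 CPM in WT mice and at 27.7, 7.10 and 4.82 CPM in *Sirt7* KO mice. Mouse 1 was 3.89 times the next highest liver, the largest such ratio of the 9 genes, and mouse 3 was within the WT range. With all livers the log2 fold change of *Usp18* was 1.54 (standard error 0.61, adjusted p = 0.38 from edgeR), against 0.39 (standard error 0.38, adjusted p = 0.64 from edgeR) without *Sirt7* KO mouse 1. With no filter on low counts, edgeR called *Ifit1*, *Ifit3*, *Isg15* and *Usp18* higher, 4 genes against 1.5% of 27881 genes (2.27% in either direction). With the filter 12524 genes were tested, so this share includes many genes of low counts. The run without the filter called 633 genes in all, against 1 with it, and the standard error of *Usp18* fell from 0.61 to 0.28.

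*Rsad2* encodes viperin, a radical SAM enzyme that makes a chain-terminating nucleotide against viral polymerases. The gene (ENSMUSG00000020641.16) lies on chromosome 12 from 26442746 to 26456452. It was at 4.66, 2.99 and 3.25 CPM in WT mice and at 14.2, 4.13 and 2.89 CPM in *Sirt7* KO mice. *Sirt7* KO mouse 1 was above all other livers, mouse 2 was within the WT range and mouse 3 was below it. For *Rsad2* the log2 fold change came to 0.96 (standard error 0.56, adjusted p = 0.57 from edgeR), and it turned to -0.052 (standard error 0.38, adjusted p = 0.96 from edgeR) without *Sirt7* KO mouse 1. With transcript lengths as an offset the log2 fold change of *Rsad2* was 0.29 in edgeR and 0.27 in DESeq2, and its mean TPM was 1.52 ± 1.39 (SD, n = 3) in the WT group and 1.59 ± 1.33 (SD, n = 3) in the KO group. *Cmpk2*, a nucleotide kinase gene next to *Rsad2*, had 22, 5 and 30 reads in WT mice, against 73, 17 and 22 in *Sirt7* KO mice, and was also highest in *Sirt7* KO mouse 1.

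IRF7 is the factor that amplifies interferon production, and STAT2 and IRF9 are subunits of ISGF3. Their genes had 156 to 623 reads per liver. *Irf7* (ENSMUSG00000025498.15), on chromosome 7 from 141262706 to 141266481, was at 21.2, 26.0 and 29.7 CPM in WT mice and at 57.0, 34.7 and 28.6 CPM in *Sirt7* KO mice. The livers of *Sirt7* KO mice 1 and 2 were above the WT range and that of mouse 3 was within it. For *Irf7* it came to a log2 fold change of 0.64 (standard error 0.26, adjusted p = 0.39 from edgeR), or 0.30 (standard error 0.18, adjusted p = 0.45 from edgeR) without *Sirt7* KO mouse 1. With length offsets the log2 fold change of *Irf7* was 0.37 in edgeR and 0.38 in DESeq2.
*Irf9* (ENSMUSG00000002325.15), on chromosome 14 from 55603571 to 55610030, was at 13.2, 27.8 and 21.5 CPM in WT mice and at 44.7, 29.2 and 20.0 CPM in *Sirt7* KO mice. The spread among WT mice was wide, and *Sirt7* KO mouse 3 was within it. *Irf9* had a fitted log2 fold change of 0.59 (standard error 0.33, adjusted p = 0.55 from edgeR), and of 0.24 (standard error 0.30, adjusted p = 0.73 from edgeR) without *Sirt7* KO mouse 1, while leaving out WT mouse 1 gave 0.35. *Stat2* (ENSMUSG00000040033.16), on chromosome 10 from 128270559 to 128292849, was at 22.6, 26.3 and 25.3 CPM in WT mice and at 39.3, 29.2 and 21.4 CPM in *Sirt7* KO mice. *Sirt7* KO mouse 3 was below all WT mice and the other 2 were above them. The log2 fold change of *Stat2*, 0.28 (standard error 0.22, adjusted p = 0.69 from edgeR), became 0.032 (standard error 0.18, adjusted p = 0.95 from edgeR) without *Sirt7* KO mouse 1, and 0.42 in edgeR and 0.43 in DESeq2 with length offsets. The libraries do not mark strand, and 4.44% of the exon bases of *Usp18*, 1.19% of those of *Irf7* and 2.28% of those of *Irf9* lie in an exon of another gene.

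**Figure D3:**
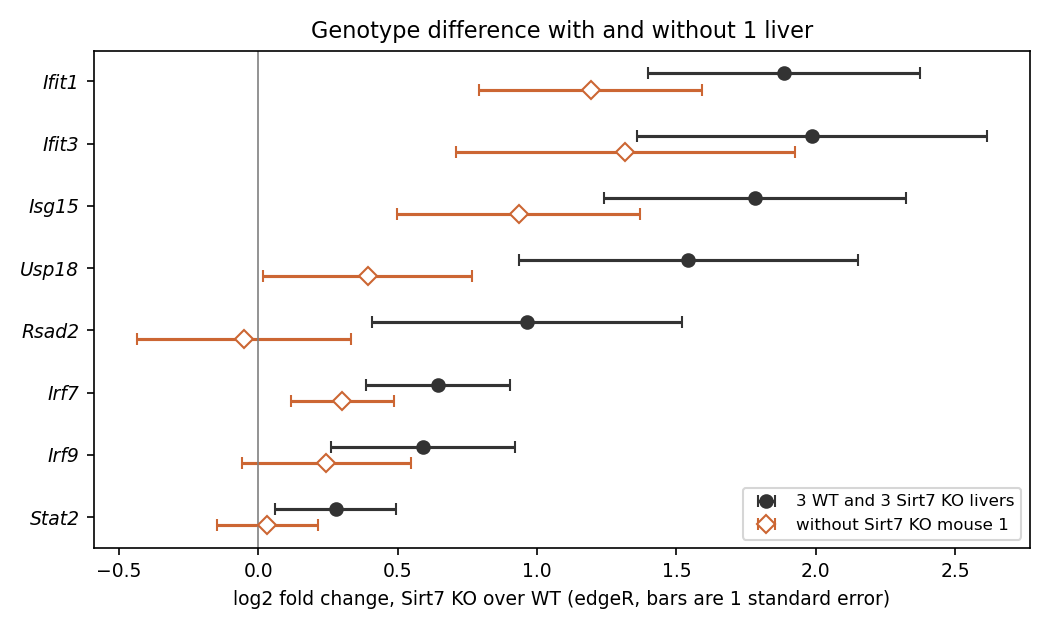
Log2 fold change of the 8 tested genes between *Sirt7* KO and WT mice, with bars of 1 standard error from edgeR, for all 6 livers (filled circles) and without *Sirt7* KO mouse 1 (open diamonds). Each value moves toward 0 without that liver, from 1.54 to 0.39 in *Usp18* and from 0.96 to -0.052 in *Rsad2*. That liver was the highest in all 8 genes, so a lower value without it was fixed in advance.

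Levels were compared between genes in TPM, which takes transcript length into account. In WT mice the 3 factors were the most abundant, with *Irf7* at 17.3 ± 4.21 TPM (SD, n = 3), *Stat2* at 10.8 ± 0.328 and *Irf9* at 8.18 ± 2.56. The ranges of *Stat2* and *Irf9* overlapped, while *Irf7* was above *Stat2* in every WT liver. *Usp18* at 3.01 ± 1.30 TPM, *Isg15* at 2.78 ± 0.589, *Rsad2* at 1.52 ± 1.39, *Ifit3* at 1.51 ± 1.33 and *Ifit1* at 1.02 ± 0.375 followed, and neighbors in this order overlapped. *Ifit2*, at 0.0811 ± 0.0386 TPM, was below *Ifit1* in every WT liver. In *Sirt7* KO mice *Isg15* was at 9.04 ± 6.57 TPM and *Ifit3* at 5.87 ± 3.55, with ranges of 4.94 to 16.6 and 3.28 to 9.91 TPM. The TPM of *Rsad2* in WT mouse 1, 3.13 against 0.674 and 0.761 in the other WT mice, includes 4.84 reads that Salmon assigned to a transcript of 430 bases.

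The rest of the pathway was read from lists of gene names, on the log2 scale of the same edgeR fit. Of 21 interferon ligand genes, 19 had no read in any liver. A count of 0 allows up to 3 reads, or 0.222 to 0.318 CPM depending on the liver, so RNA of these 19 genes was not detectable at this depth. The exceptions were *Ifnz*, with 1, 2 and 0 reads in WT mice, against 1, 0 and 0 in *Sirt7* KO mice, and *Ifng*, with 3 reads in *Sirt7* KO mouse 1 and 0 in the other livers.
Among 16 receptor and signaling genes 14 were tested, 9 had a log2 fold change above 0 (49.3% of all tested genes) and none was called. At an unadjusted p-value under 0.05, 3 were higher (6.54% of all tested genes) and 0 were lower. The highest log2 fold change was that of *Stat3*, the factor of the interleukin-6 response, at 0.73 (standard error 0.19, adjusted p = 0.20 from edgeR). For *Stat3*, no WT liver reached the lowest *Sirt7* KO liver in CPM. The lowest were those of *Il10rb*, a subunit of the interferon lambda receptor, at -0.42 and of the phosphatase *Ptpn11* at -0.30.
Among 17 genes of nucleic acid sensing 13 were tested. The 5 with an unadjusted p-value under 0.05 were all higher in *Sirt7* KO mice (6.54% of all tested genes). Without *Sirt7* KO mouse 1, 3 were higher at this level (9.03% of all tested genes). With all livers, every *Sirt7* KO liver was above every WT liver in 6 (8.74% of all tested genes). The highest log2 fold changes were in *Zbp1*, a sensor of Z-form nucleic acids, at 1.64 (standard error 0.58, adjusted p = 0.34 from edgeR), and in *Ikbke*, a kinase of IRF3 and IRF7, at 1.41 (standard error 0.29, adjusted p = 0.15 from edgeR). *Ikbke* had 68, 64 and 163 reads in WT mice, against 221, 215 and 207 in *Sirt7* KO mice, so unlike in *Zbp1*, with 154 reads in *Sirt7* KO mouse 1 against 43 and 42 in the others, all 3 livers were alike. The lowest values were -0.17 in *Ticam1*, the adaptor of TLR3, and -0.11 in *Trim25*, a ubiquitin and ISG15 ligase.

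Among the other IRF genes 7 of 8 were tested, and *Irf5* had the highest log2 fold change. *Irf5*, a factor of Toll-like receptor signaling, had 54, 34 and 117 reads in WT mice, against 150, 169 and 247 in *Sirt7* KO mice. Here *Sirt7* KO mouse 1 was the lowest of its group, and the groups did not overlap. The log2 fold change of *Irf5* was 1.75 (standard error 0.37, adjusted p = 0.15 from edgeR). Without *Sirt7* KO mouse 1 it was 1.93 and passed the threshold (adjusted p = 0.046 from edgeR), where 1.28% of all tested genes were called higher. That liver was the lowest of its group, so a higher value without it was fixed in advance. The lowest values were -0.11 in *Irf2bp2* and -0.10 in *Irf2bp1*, corepressors of IRF2.
Of the 4 enzymes that attach ISG15, *Herc6*, the main ISG15 ligase of the mouse, had the highest log2 fold change at 1.54 (standard error 0.46, adjusted p = 0.25 from edgeR). Those of the activating enzyme *Uba7* and the conjugating enzyme *Ube2l6* were 0.70 and 0.37, and that of *Trim25* was below 0 as given above. *Herc6* and *Uba7* were higher in every *Sirt7* KO liver than in any WT liver, which held for 8.74% of all tested genes.

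Of 59 other antiviral interferon-stimulated genes, 47 were tested, 43 of these had a log2 fold change above 0 (49.3% of all tested genes) and none was called. The median was 0.45. At an unadjusted p-value under 0.05, 13 were higher and 0 were lower, and in 15 every *Sirt7* KO liver was above every WT liver, against 6.54%, 4.78% and 8.74% of all tested genes. *Sirt7* KO mouse 1 was the highest liver in 37 of the 47 genes (18.6% of all tested genes). Without it, 30 of the 47 had a log2 fold change above 0 (6030 of 12524 tested genes), with a median of 0.24. At an unadjusted p-value under 0.05, 12 were then higher and 1 lower (9.03% and 8.34% of all tested genes).
The highest log2 fold changes were in *Xaf1*, a gene of apoptosis control, at 1.74 (standard error 0.51, adjusted p = 0.24 from edgeR), and in *Oasl1*, of the oligoadenylate synthetase family, at 1.23 (standard error 0.26, adjusted p = 0.15 from edgeR). *Oasl1* had 63, 62 and 83 reads in WT mice, against 200, 103 and 113 in *Sirt7* KO mice, with no overlap. The lowest were -0.58 in *Ifi203* and -0.28 in *Ifi204*, DNA sensor genes of the p200 family.
Without *Sirt7* KO mouse 1, 2 genes of this list passed the threshold, where 1.28% of all tested genes were called higher. *Ly6e*, which encodes a membrane protein that acts on virus entry, had 1551, 1741 and 2194 reads in WT mice, against 4364, 3669 and 2740 in *Sirt7* KO mice. Its adjusted p-value from edgeR was 0.030 without *Sirt7* KO mouse 1 and 0.082 with it. *Nmi*, which binds STAT and MYC proteins, had 150, 155 and 215 reads in WT mice, against 272, 249 and 270 in *Sirt7* KO mice, with adjusted p-values of 0.043 and 0.115 from edgeR. In both genes mice 2 and 3 were above all WT mice as well.

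**Figure D4:**
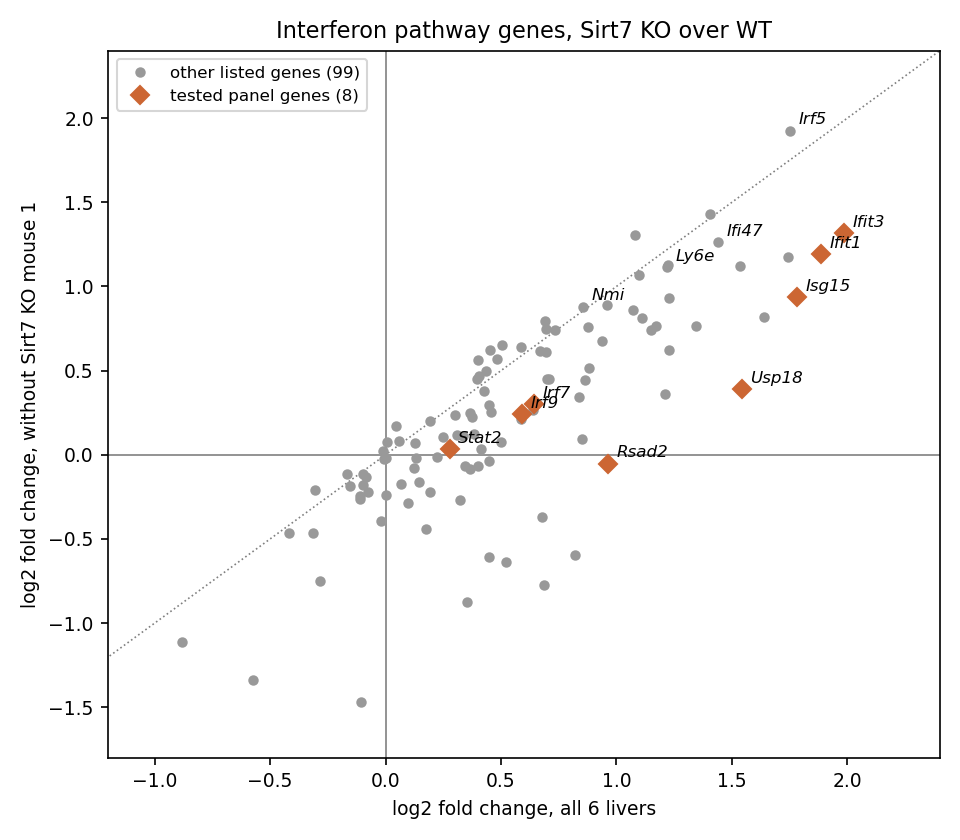
Log2 fold change between *Sirt7* KO and WT mice with all 6 livers (x axis) and without *Sirt7* KO mouse 1 (y axis) for the 8 tested panel genes (orange) and 99 other tested interferon pathway genes (grey), with the line of equal values dotted. The panel genes lie below the dotted line, which was fixed in advance, since *Sirt7* KO mouse 1 was the highest liver in each. *Irf5* lies above the line, which was also fixed in advance, since *Sirt7* KO mouse 1 was the lowest of its group. *Nmi* lies close to the line. Both axes share the WT livers.

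Interferon gamma GTPases, which attack the vacuoles of pathogens inside cells, were set beside the antiviral genes. Of 14, 13 were tested and 11 had a log2 fold change above 0 (49.3% of all tested genes). In 10, *Sirt7* KO mouse 1 was the highest liver (18.6% of all tested genes). Their mean relative to all 6 livers was -0.26, -0.12 and -0.16 in WT mice, against 0.79, -0.21 and -0.043 in *Sirt7* KO mice, on the log2 scale. *Sirt7* KO mouse 2 was thus within the WT range here, while it was above it for the antiviral panel. The difference between the lists was not tested. The median log2 fold change of the 13 genes was 0.45, and -0.036 without *Sirt7* KO mouse 1. Without that liver, 6 of the 13 were above 0 (6030 of 12524 tested genes). At an unadjusted p-value under 0.05, 3 were higher (6.54% of all tested genes), and 1 without *Sirt7* KO mouse 1 (9.03% of all tested genes). *Ifi47* had the highest log2 fold change, 1.44 (standard error 0.21, adjusted p = 0.055 from edgeR, and 0.025 without *Sirt7* KO mouse 1). *Gbp6* followed at 1.34, and the lowest values were -0.88 in *Gbp9* and -0.32 in *Gbp2*. *Ifi47* was the 1 gene of this list called without *Sirt7* KO mouse 1, where 1.28% of all tested genes were called higher.

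Among 12516 other tested genes, the 5 whose profile over the 6 livers was most like the mean of the 8 panel genes were *Spcs1*, *Shisa5*, *Jak1*, *Ncapd2* and *Irgm1*. Their Pearson r was 0.97 to 0.99 and their Spearman rho 0.83 to 1.00 over 6 livers, which is a description, since they were picked for it and all points share their libraries. Without *Sirt7* KO mouse 1 the r was 0.79 to 0.95 over 5 livers. *Jak1* encodes the kinase bound to IFNAR, *Shisa5* and *Irgm1* are themselves induced by interferons, and *Spcs1* is a subunit of the signal peptidase. *Jak1* was at 44.1, 42.6 and 50.3 CPM in WT mice and at 64.6, 50.01 and 48.5 CPM in *Sirt7* KO mice. The groups overlapped, at a fitted log2 difference of 0.25 with a standard error of 0.16 (adjusted p = 0.61 from edgeR).

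Markers of other liver cells were read in the same libraries. The sum over 9 Kupffer cell and macrophage markers was 108 to 319 CPM in WT mice, against 103 to 249 CPM in *Sirt7* KO mice. *Sirt7* KO mouse 1 was the highest of its group at 249 CPM, and WT mouse 3 was the highest of its group at 319 CPM. These livers also had the highest mean of the interferon genes in their groups, at 1.40 and -0.27. The other livers did not keep this order. *Sirt7* KO mouse 2 had 103 CPM and a mean of 0.16, against 188 CPM and -0.089 in *Sirt7* KO mouse 3. WT mice 1 and 2 had 108 and 116 CPM, with means of -0.58 and -0.62. None of these 9 markers had an unadjusted p-value under 0.05 from edgeR, and 5 had a log2 fold change above 0 (49.3% of all tested genes). The sum over 6 neutrophil markers was 1.09 to 4.06 CPM in WT mice, against 1.91 to 7.05 CPM in *Sirt7* KO mice, highest in *Sirt7* KO mouse 1, with *Ly6g* at 0 in all livers. Of 8 dendritic cell markers 2 were tested, and the sum was 101 to 117 CPM in WT mice, against 126 to 142 CPM in *Sirt7* KO mice, most of it from *Bst2*, which is itself induced by interferon. The defining marker of plasmacytoid dendritic cells, *Siglech*, had at most 2 reads in any liver.
For T and NK cells (8 markers) the sum was 2.27 to 6.35 CPM in WT mice, against 3.07 to 4.62 CPM in *Sirt7* KO mice. It was 27.4 to 48.3 and 22.6 to 49.5 CPM for B and plasma cells (8 markers), 71.4 to 86.1 and 74.9 to 108.4 CPM for sinusoidal endothelial cells (6 markers), 165 to 208 and 135 to 212 CPM for stellate cells (6 markers), and 47.3 to 72.7 and 53.4 to 71.0 CPM for cholangiocytes (5 markers). Among the T and NK cell markers, *Cd4* had 0 reads in all WT mice, against 10, 12 and 23 in *Sirt7* KO mice. *Cd3d* had 23.2, 4.1 and 11 reads in WT mice, against 1, 1 and 6 in *Sirt7* KO mice, and *Nkg7*, the 1 marker of this list that was tested, had a log2 fold change of -0.99. The part of these cells in the interferon values was not tested.

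**Figure D5:**
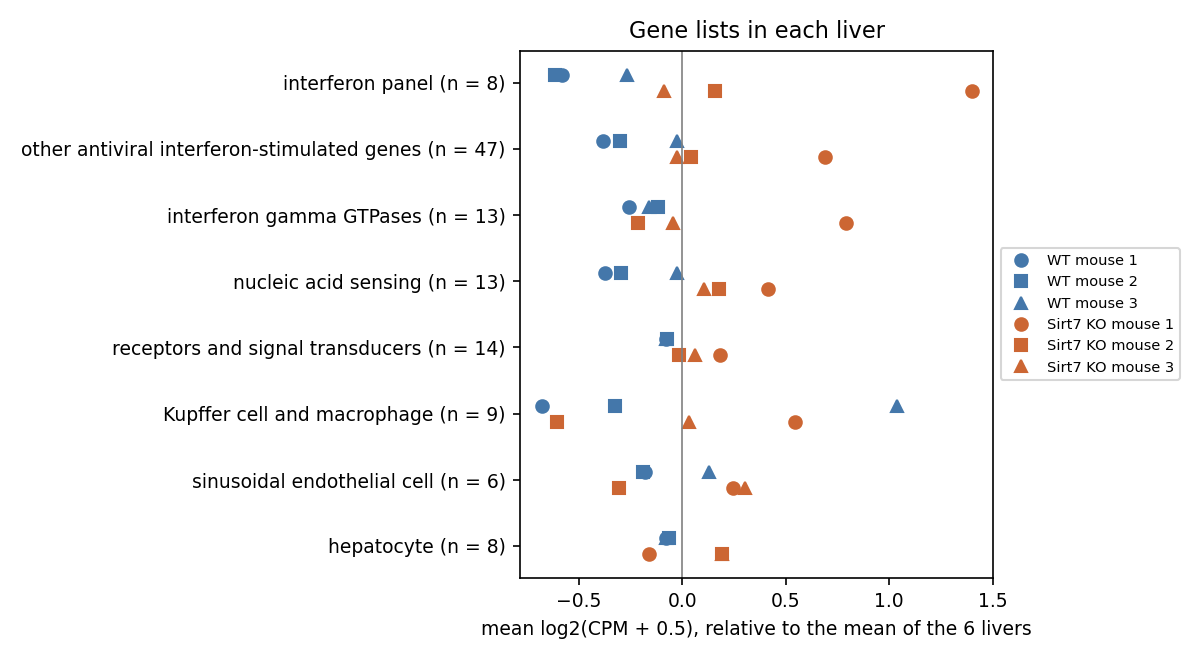
Mean log2(CPM + 0.5) of 8 gene lists in each liver relative to the mean of the 6 livers (x axis), with WT mice in blue, *Sirt7* KO mice in orange and the number of tested genes beside each list. *Sirt7* KO mouse 1 (orange circle) is highest for the 5 interferon lists shown, at 1.40 for the panel. WT mouse 3 (blue triangle) is highest for the Kupffer cell and macrophage markers, and is the highest WT liver for the panel, at -0.27. *Sirt7* KO mouse 2 is at -0.60 for these markers and 0.16 for the panel, against 0.032 and -0.089 for *Sirt7* KO mouse 3.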

How the data were processed

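The RNA-seq libraries of 6 livers were used, grouped by the genotype in the sample labels. Per the labels and the study's methods, the authors made cDNA with SMART-seq HT, trimmed reads with Trim Galore 0.6.5 and quantified them with Salmon 1.2.1 on GRCm38 transcripts. They deposited, per transcript, the estimated count of reads, which is not normalized, and TPM. The annotation release is not given in the sources used here. Estimated counts were summed over the genes of GENCODE M21 and rounded. Of 140992 transcripts, 1201 without a gene there were left out. Ranges of the libraries' totals are in the report, and few reads limit the precision of the low genes.

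Genotypes were compared over 12524 genes with edgeR 4.0.16 (R 4.3.3), using TMM normalization, filterByExpr (minimum count 10), the quasi-likelihood test and Benjamini-Hochberg adjustment over all tested genes. DESeq2 1.42.0 was an alternative. The script was tested on simulated data. Single genes were also compared by exact permutation of log2(CPM + 0.5). CPM used TMM-scaled library sizes. P-values measure the spread between mice. Words of 31 bases were taken from M21 transcripts and promoters from RefSeq.

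The 9 genes and all lists were chosen with earlier results of these data known. Named are the 9 genes, *Sirt7*, the neighbors of the *Ifit* genes and of *Rsad2*, the 2 highest and 2 lowest tested genes of each list by log2 fold change, and the 5 genes with the profile most like the panel's. Some genes that this rule names are not reported here. *Ly6e*, *Nmi*, the other *Sirt7* transcripts, *Cd4*, *Cd3d*, *Nkg7*, *Siglech*, *Ly6g*, *Bst2*, *Ifng* and *Ifnz* were named after their values were seen.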

Additional observations from a re-analysis of the deposited data

How the results depend on the processing

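The number of genes called over the whole table was 1 of 12524 tested. It was 2 with total-count scaling and with length offsets in edgeR. It was 257 of 12186 genes with an adjusted p-value in DESeq2, and 240 of 13267 with length offsets. With no filter on low counts it was 633 of 27881. Leaving out 1 mouse at a time gave 0 to 251, the highest without *Sirt7* KO mouse 1. Among the 9 interferon genes, 0 were called by edgeR (5 at an unadjusted p-value under 0.05), 2 by DESeq2 with or without length offsets, and 4 with no filter. Their median log2 fold change was 0.35 to 1.64 when 1 mouse was left out. The lowest was again without *Sirt7* KO mouse 1, where *Rsad2* turned to -0.052 (up to 1.34 when another mouse was left out). No other gene of the panel changed sign under any alternative run. The cause of these shifts was not tested. Total-count scaling put the median over the whole table at -0.11 on the log2 scale. The sum of *Ifit3* and *Ifit3b*, the counts by *Sirt7* KO liver and the list counts without *Sirt7* KO mouse 1 were alternatives chosen after seeing the data.

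The labels number the livers of each genotype as biological replicates and do not say whether a number marks a shared litter, cage or batch. Deviations of same-numbered livers had correlations of 0.065, 0.080 and -0.044 across genes, and 4 of 6 livers correlated best with their own number. With the replicate number as a block, 41 of 12524 tested genes were called and 0 of the 8 tested interferon genes.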

Other observations

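The transcripts of *Irf7* were examined after their values were seen. Salmon assigned 7.66%, 4.30% and 11.7% of the *Irf7* reads in WT mice to its 6 transcripts with a retained intron, and 18.2%, 28.4% and 30.7% in *Sirt7* KO mice. The groups did not overlap (exact two-sided permutation test, p = 0.1, the smallest possible), and *Sirt7* KO mouse 1, which had the most *Irf7* reads, had the lowest share of its group. The shares of such transcripts for *Stat2* were 14.4% ± 2.16 (SD, n = 3) in the WT group and 15.8% ± 4.45 (SD, n = 3) in the KO group, and 8.36% ± 4.76 (SD, n = 3) and 7.20% ± 1.24 (SD, n = 3) for *Irf9*, where the groups overlapped. The share in *Usp18* was 6.77% ± 3.83 (SD, n = 3) in the WT group and 2.22% ± 2.07 (SD, n = 3) in the KO group, with no overlap (exact two-sided permutation test, p = 0.1), and rested on at most 9.345 reads per transcript and liver. These shares are estimates from reads that fit more than 1 transcript, and *Irf7* shares 1.19% of its exon bases with *Phrf1* on the opposite strand. How often such shares keep the groups apart over all genes was not tested.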
